A study of Mus musculus with 15 samples.

Results

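The 9 genes described here encode transcription factors best known from the forebrain, and they were taken by symbol from the 57180 genes listed in the deposited brainstem tables. They were the distal-less homeobox genes Dlx1, Dlx2, Dlx5 and Dlx6, the homeobox genes Six3 and Emx2, the LIM homeobox genes Lhx6 and Lhx8, and the T-box gene Tbr1. Their levels in these same 15 libraries led to their choice, so the levels are given as a description and no test of the 9 genes is reported.

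RNA sequencing was performed on brain stem tissue of C57BL/6 mice in 2 experiments, each with 3 libraries per genotype. The AMPK experiment compared AMPK-/- mice, which lack the α2 catalytic subunit of the energy-sensing kinase AMPK encoded by Prkaa2, with AMPK+/+ littermates as newborns. The LMX1B experiment compared LMX1B+/+, LMX1B+/- and LMX1B-/- mice before birth, since loss of both copies of Lmx1b, a LIM homeobox gene for dorsal and ventral patterning, is lethal. Both mutations were present in the whole animal, and a gene list for the hindbrain (14 genes, mostly Hox) had every member above 3 counts in the 9 LMX1B libraries.

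Dlx genes sit in the genome as convergently transcribed pairs. They are switched on in progenitors of the ventral forebrain and lead them to become GABA-producing neurons of the striatum and the cortical interneurons, and the cranial neural crest uses them as well. Lhx6 and Lhx8 act after them in the medial ganglionic eminence, where Lhx6 directs migrating interneurons and Lhx8 cholinergic neurons. Tbr1 marks glutamatergic neurons of the cortex, Emx2 patterns the cortex, and Six3 is needed for the most anterior forebrain and the eye, with further domains of Six3 and Emx2 in the diencephalon and midbrain. The hindbrain is mostly outside the domains of these genes, so their level in a brain stem library can depend on the tissue and cells it holds, which was not tested. In bulk RNA, fewer cells of a type and less RNA per cell cannot be told apart.

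In the GENCODE annotation of GRCm38, Dlx1 and Dlx2 lie next to each other on chromosome 2 with 0 coding genes between them, and Dlx6 and Dlx5 likewise on chromosome 6. Lhx6 and Tbr1 are also on chromosome 2, Lhx8 on chromosome 3, Six3 on chromosome 17 and Emx2 on chromosome 19. Of the 9 genes, 7 matched a RefSeq promoter window (GRCm38.p6, 250 bases before to 50 bases after a transcription start), while Dlx5 and Dlx6 did not. The windows of Dlx1, Dlx2 and Tbr1 are shown because these genes were highest in the same libraries, and those of Six3 and Emx2 because these were highest in other libraries. Dlx1 is chr2:71529195-71529494 on the plus strand, Dlx2 chr2:71546705-71547004 on the minus strand, Tbr1 chr2:61804203-61804502 on the plus strand, Six3 chr17:85620584-85620883 on the plus strand and Emx2 chr19:59458440-59458739 on the plus strand, each written 5′ to 3′ with TAATTA, a homeodomain core, and CCAAT in capitals, CCAAT also where it lies on the opposite strand.
Dlx1: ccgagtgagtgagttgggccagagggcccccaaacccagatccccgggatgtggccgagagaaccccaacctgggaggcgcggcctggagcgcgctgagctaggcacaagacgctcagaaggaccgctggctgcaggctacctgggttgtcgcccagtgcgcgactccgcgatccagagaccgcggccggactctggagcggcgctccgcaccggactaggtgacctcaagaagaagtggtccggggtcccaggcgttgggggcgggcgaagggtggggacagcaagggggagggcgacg
Dlx2: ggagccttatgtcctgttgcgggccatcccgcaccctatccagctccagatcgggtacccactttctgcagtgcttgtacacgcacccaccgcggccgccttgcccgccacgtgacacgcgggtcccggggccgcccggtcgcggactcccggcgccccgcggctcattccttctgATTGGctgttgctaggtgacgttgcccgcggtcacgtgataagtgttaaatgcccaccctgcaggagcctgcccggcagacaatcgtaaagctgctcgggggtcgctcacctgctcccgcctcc
Tbr1: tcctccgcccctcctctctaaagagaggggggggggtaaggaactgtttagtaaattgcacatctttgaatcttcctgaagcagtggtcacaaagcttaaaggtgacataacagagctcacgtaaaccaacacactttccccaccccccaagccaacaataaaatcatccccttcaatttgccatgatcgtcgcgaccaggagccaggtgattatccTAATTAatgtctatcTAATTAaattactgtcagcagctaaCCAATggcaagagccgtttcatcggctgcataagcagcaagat
Six3: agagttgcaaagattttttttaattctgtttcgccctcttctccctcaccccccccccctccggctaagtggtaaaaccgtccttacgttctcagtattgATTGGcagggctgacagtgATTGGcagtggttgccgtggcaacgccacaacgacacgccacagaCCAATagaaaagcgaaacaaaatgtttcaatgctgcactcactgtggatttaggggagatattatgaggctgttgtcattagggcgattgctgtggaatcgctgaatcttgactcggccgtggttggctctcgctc
Emx2: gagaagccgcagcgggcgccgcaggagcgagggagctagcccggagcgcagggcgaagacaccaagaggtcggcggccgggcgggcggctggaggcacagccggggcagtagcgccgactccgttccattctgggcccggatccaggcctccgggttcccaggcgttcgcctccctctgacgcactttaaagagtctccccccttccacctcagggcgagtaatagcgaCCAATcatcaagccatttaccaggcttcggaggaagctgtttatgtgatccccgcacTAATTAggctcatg
TAATTA reads the same on both strands and occurred once in the Emx2 window and at 2 places in the Tbr1 window, while 5.29% of all 32851 windows held it. CCAAT on either strand was in the windows of Dlx2, Six3, Emx2, Tbr1 and Lhx6, that is 5 of the 7 matched genes, against 37.4% of all windows. The 7 genes held 9 windows, as Lhx6 had 3, so the share of genes and the share of windows are unlike units. The Dlx1 and Dlx2 windows held 27 and 29 CpG dinucleotides and the Emx2 window 26, against 14 for Six3, 7 for Tbr1 and a median of 7 over all windows. A match describes letters in a window and is not a measured binding site.

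Levels are given throughout as CPM, the counts of a gene relative to the library total after scaling by the trimmed mean of M values (TMM), and a limit of 3 counts serves as the floor of detection. The 9 LMX1B libraries held 28833130 to 37441679 counts, which put the floor at 0.0675 to 0.108 CPM. The AMPK libraries held 14975095 to 17384171 counts, except AMPK+/+ 2 with 291212 and AMPK-/- 3 with 335986, whose floors were 9.96 and 9.04 CPM. Lmx1b itself was at 0.85 to 1.45 CPM in LMX1B-/- and 9.72 to 22.5 CPM in LMX1B+/+. In LMX1B+/- it was at 11.9 to 30.5 CPM and overlapped LMX1B+/+, so it did not check the LMX1B+/- label. Prkaa2 overlapped between AMPK-/- (12.1 to 25.3 CPM) and AMPK+/+ (21.9 to 29.6 CPM), so it did not check those labels, and the part of the transcript that was deleted is not stated in the sources used here. Nothing in the labels says that libraries of a genotype came from separate animals, so the spread between them may be partly technical. Mitochondrial genes took 9.58 to 14.7% of counts in LMX1B+/-, 5.57 to 6.74% in LMX1B+/+ and 7.23 to 7.98% in LMX1B-/-. A single gene, ENSMUSG00000119584, took 4.56% of counts in LMX1B+/+ 3 and 13.7 to 22.7% in the other LMX1B libraries, so the depth left for other genes differed.

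The 4 Dlx genes were at 0 to 0.138 CPM in LMX1B+/+, reached up to 0.539 CPM in LMX1B+/-, and were higher than in any other library in 2 of 3 LMX1B-/- libraries. Dlx1 (ENSMUSG00000041911) was at 0.0351, 0.138 and 0 CPM in LMX1B+/+ libraries 1, 2 and 3, at 0.217, 0.193 and 0.390 CPM in LMX1B+/-, and at 3.58, 0.386 and 2.57 CPM in LMX1B-/-. LMX1B-/- 1 and 3 were thus the highest of the 9, whereas LMX1B-/- 2 was level with LMX1B+/- 3. Dlx2 (ENSMUSG00000023391) measured 0.0703, 0.104 and 0.0225 CPM in LMX1B+/+, 0.0362, 0.193 and 0.539 CPM in LMX1B+/-, and 1.90, 0.208 and 1.75 CPM in LMX1B-/-. Here LMX1B-/- 2 lay below LMX1B+/- 3, so the mutant genotypes overlapped, while every LMX1B-/- library exceeded every LMX1B+/+ library. Dlx5 (ENSMUSG00000029755), the partner of Dlx6 in the ganglionic eminences and the developing jaw, gave 0.0351, 0 and 0.0450 CPM in LMX1B+/+, 0.217, 0.161 and 0.210 CPM in LMX1B+/- and 1.06, 0.119 and 1.19 CPM in LMX1B-/-. Its LMX1B-/- 2 value was under all 3 LMX1B+/- values. Dlx6 (ENSMUSG00000029754) had 0 counts in all 3 LMX1B+/+ libraries, 1, 1 and 7 counts in LMX1B+/- and 17, 2 and 14 counts in LMX1B-/-, or 0.548, 0.0593 and 0.371 CPM in the latter. The order of libraries was the same as for Dlx1 in LMX1B-/-, with replicate 1 first, replicate 3 second and replicate 2 last.

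Summed over the 4 Dlx genes, LMX1B+/+ libraries 1, 2 and 3 had 0.141, 0.242 and 0.0675 CPM (4, 7 and 3 counts). LMX1B+/- gave 0.506, 0.580 and 1.35 CPM (14, 18 and 45 counts), and LMX1B-/- gave 7.10, 0.771 and 5.88 CPM (220, 26 and 222 counts). By genotype this was 0.150 ± 0.0877 CPM in LMX1B+/+, 0.812 ± 0.467 CPM in LMX1B+/- and 4.58 ± 3.36 CPM in LMX1B-/- (mean ± SD, n = 3 each). The SD of LMX1B-/- was nearly as large as its mean, and its range overlapped that of LMX1B+/- but not that of LMX1B+/+.

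With counts pooled over each genotype, Dlx1 was 43.9-fold higher in LMX1B-/- than in LMX1B+/+ (221 against 5 counts, 95% counting interval 18.5 to 137). Dlx2 was 21.9-fold higher (132 against 6 counts, interval 9.78 to 60.6) and Dlx5 27.2-fold higher (82 against 3 counts, interval 8.97 to 134). For Dlx6, with 33 against 0 counts, the ratio was at least 10.9-fold higher, set against 3 counts over the LMX1B+/+ group. These intervals cover counting error and not the spread between libraries, which was the larger: within LMX1B-/- alone, Dlx1 in library 1 was 9.28 times its value in library 2 (interval 5.21 to 18.0) and Dlx2 9.16 times (interval 4.18 to 23.8). Between LMX1B-/- 1 and LMX1B-/- 3, in contrast, the ratio was 1.39 for Dlx1 (interval 1.05 to 1.85), 1.09 for Dlx2 (interval 0.753 to 1.57) and 0.893 for Dlx5 (interval 0.552 to 1.43).

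**Figure D1:**
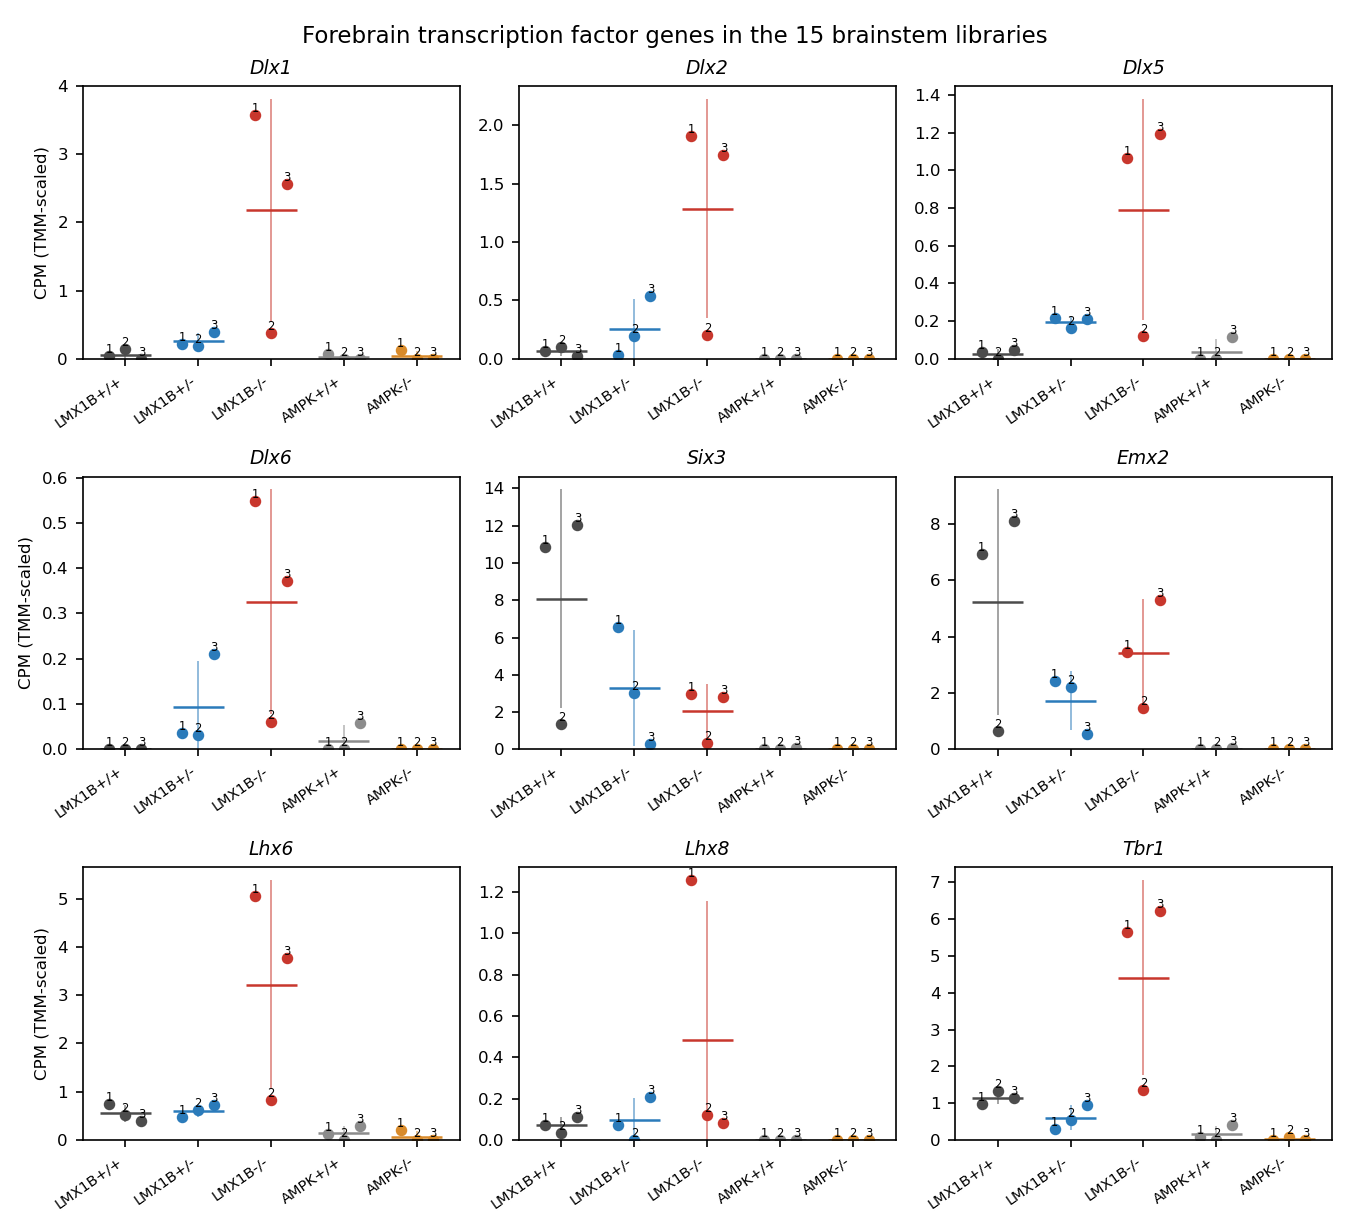
CPM (TMM-scaled, linear axis) of each of the 9 genes in the 15 libraries, 1 point per library with its replicate number, grouped by genotype; the horizontal line is the mean and the vertical line the SD, drawn no lower than 0 (n = 3). Points 1 and 3 of LMX1B-/- stand above all others for Dlx1, Dlx2, Dlx5, Dlx6, Lhx6 and Tbr1, point 1 alone for Lhx8, and points 1 and 3 of LMX1B+/+ for Six3 and Emx2.

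Lhx6, Lhx8 and Tbr1 followed the Dlx genes in part. Lhx6 (ENSMUSG00000026890) was at 0.738, 0.519 and 0.383 CPM in LMX1B+/+, 0.470, 0.612 and 0.719 CPM in LMX1B+/- and 5.06, 0.831 and 3.76 CPM in LMX1B-/-. All 3 LMX1B-/- libraries exceeded the other 6, although library 2 did so by little. Tbr1 (ENSMUSG00000035033) measured 0.984, 1.31 and 1.15 CPM in LMX1B+/+, 0.289, 0.548 and 0.959 CPM in LMX1B+/- and 5.64, 1.36 and 6.22 CPM in LMX1B-/-. Again libraries 1 and 3 were high, library 2 was next to LMX1B+/+ 2, and LMX1B+/- lay below LMX1B+/+ in all 3 libraries, as for 21.9% of all tested genes. Lhx8 (ENSMUSG00000096225) was different, at 0.0703, 0.0346 and 0.113 CPM in LMX1B+/+, 0.0723, 0 and 0.210 CPM in LMX1B+/- and 1.26, 0.119 and 0.0795 CPM in LMX1B-/-. Of the 9 libraries only LMX1B-/- 1 stood above the floor by a wide margin, with 39 counts against 3 in LMX1B-/- 3, a ratio of 15.8 (counting interval 5.03 to 80.1). Thus the pair of LMX1B-/- libraries that shared high Dlx1, Dlx2, Dlx5, Dlx6, Lhx6 and Tbr1 did not share Lhx8.

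Six3 and Emx2 were highest in wild-type libraries instead. Six3 (ENSMUSG00000038805) was at 10.9, 1.35 and 12.04 CPM in LMX1B+/+, 6.54, 3.03 and 0.300 CPM in LMX1B+/- and 2.97, 0.326 and 2.83 CPM in LMX1B-/-. Its spread within a genotype exceeded the distance between genotypes, with LMX1B+/+ 2 below 4 of the 6 mutant libraries. Emx2 (ENSMUSG00000043969) gave 6.92, 0.657 and 8.08 CPM in LMX1B+/+, 2.42, 2.22 and 0.539 CPM in LMX1B+/- and 3.45, 1.45 and 5.30 CPM in LMX1B-/-. LMX1B+/+ 1 and 3 were again the highest, LMX1B+/+ 2 and LMX1B+/- 3 the lowest, and the 3 genotypes overlapped. Within LMX1B-/- library 2 was lowest for both genes, as for the other members except Lhx8. Six3 in library 1 was at 9.09 times library 2 (counting interval 4.85 to 18.8) and Emx2 at 2.37 times (interval 1.68 to 3.40).

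**Figure D2:**
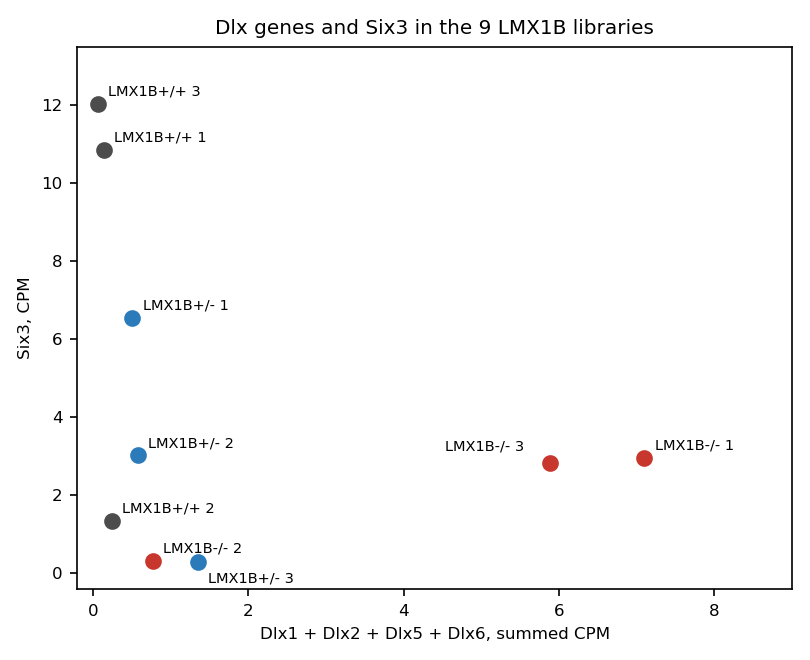
Summed CPM of Dlx1, Dlx2, Dlx5 and Dlx6 (x axis) against CPM of Six3 (y axis) in each of the 9 LMX1B libraries, coloured by genotype. LMX1B-/- 1 and 3 sit alone at 7.10 and 5.88 CPM of Dlx transcripts, and LMX1B+/+ 1 and 3 sit alone at 10.9 and 12.04 CPM of Six3 with Dlx sums of 0.141 and 0.0675 CPM.

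Per transcript length, in the RPKM values deposited by the authors, Emx2 was the most abundant of the 9 in LMX1B-/- 1 at 1.21 RPKM, followed by Lhx6 at 1.11 and Tbr1 at 1.09 RPKM. Dlx1 and Dlx2 were alike there at 0.700 and 0.703 RPKM, ahead of Six3 at 0.575, Lhx8 at 0.524, Dlx5 at 0.496 and Dlx6 at 0.243 RPKM. In LMX1B-/- 3 the order began with Emx2 at 1.83, Tbr1 at 1.17 and Lhx6 at 0.810 RPKM, and Lhx8 was last at 0.0325 RPKM. In LMX1B+/+ 3, Emx2 at 3.34 and Six3 at 2.74 RPKM stood far above Tbr1 at 0.260 and Lhx6 at 0.0988 RPKM. None of the 9 genes reached 4 RPKM in any library.

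Likeness between profiles was measured as the root mean square distance over the 9 LMX1B libraries between log2 CPM values (prior count 2), each gene centred on its own mean. Among the 36 pairs the closest were Dlx5 and Dlx6 at 0.54, Dlx6 and Lhx6 at 0.57, Dlx2 and Dlx6 at 0.59, Lhx6 and Tbr1 at 0.61, and Dlx1 and Dlx2 at 0.65. Dlx1 and Six3 were the farthest apart at 2.96, and Six3 and Emx2 were nearer to each other, at 1.01, than either was to any other member. Dlx1 varied most around its own mean, by 1.85, followed by Six3 at 1.75, while Lhx8 varied least at 1.17. These distances are a description over libraries of 1 experiment, and at a few counts per library the prior count draws Dlx5, Dlx6 and Lhx8 together.

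**Figure D3:**
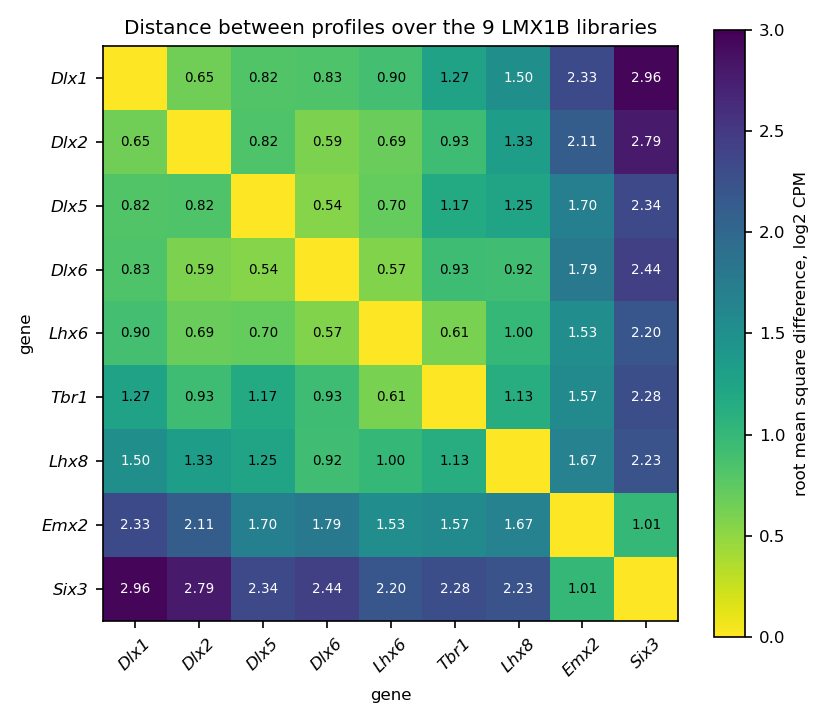
Root mean square distance between the centred log2 CPM profiles of each pair of the 9 genes over the 9 LMX1B libraries, from 0 (yellow, same profile) to 3 (dark). Dlx1, Dlx2, Dlx5, Dlx6, Lhx6 and Tbr1 form a block with distances of 0.54 to 1.27, and Six3 and Emx2 a pair at 1.01.

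Of the 10 tested genes outside the list that lay nearest to the mean profile of the 4 Dlx genes, the ones reported here were, in order, Gm29260 at 0.82, Dlx6os1 at 0.99, Dio2 at 0.99, Fmo2 at 1.02, Gm37589 at 1.05, Ccdc170 at 1.06 and Gm42483 at 1.09. Dlx6os1 lies at a Dlx locus and is described with its neighbours. Dio2, the enzyme that activates thyroid hormone within the brain, was at 0.949, 0.934 and 0.698 CPM in LMX1B+/+, 0.759, 0.967 and 1.14 CPM in LMX1B+/- and 1.94, 1.63 and 2.78 CPM in LMX1B-/-. All 3 LMX1B-/- libraries were above the other 6 for Dio2, and library 2 was the lowest of the 3.

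For Six3, the same measure (chosen after its values were seen) named Six3os1 at 0.70, Tcf7l2 at 0.76, Tfap2d at 0.80, Lhx9 at 0.92, Shisa3, Gm10421, Pou4f3, Gm47757, Pax7 at 1.03 and Gm35940. Tcf7l2 and Lhx9 are known from the thalamus, and Pax7 and Pou4f3 from the dorsal midbrain among other sites. Pax7 was at 14.8, 1.87 and 17.4 CPM in LMX1B+/+, 2.75, 6.32 and 0.480 CPM in LMX1B+/- and 4.93, 2.43 and 11.5 CPM in LMX1B-/-. Tcf7l2 ran from 13.0 CPM in LMX1B+/- 3 to 120 CPM in LMX1B+/+ 1, with 31.9 CPM in LMX1B+/+ 2 and 114 CPM in LMX1B+/+ 3. LMX1B+/+ 2 was low and LMX1B+/- 3 lower still for both genes, as for Six3.

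Long noncoding RNAs transcribed at the same loci were compared with their neighbours. In the annotation Dlx6os1 overlaps Dlx6, Dlx1as overlaps Dlx1, Six3os1 overlaps Six3 and Emx2os overlaps Emx2, each from the opposite strand. The library kit keeps strand, but the setting used in counting is not stated in the sources used here, so reads of the overlapping parts may not be told apart. Dlx6os1, also called Evf2 and known to recruit DLX proteins to enhancers of its locus, was at 0, 0.0346 and 0.0450 CPM in LMX1B+/+, 0.108, 0.0967 and 0.569 CPM in LMX1B+/- and 7.90, 0.326 and 5.43 CPM in LMX1B-/-. In LMX1B-/- 1 it had 245 counts where Dlx6 had 17, and its ratio between LMX1B-/- 1 and 2 was 24.2 (counting interval 13.3 to 49.1). Dlx1as behaved otherwise, at 2.28, 2.08 and 2.84 CPM in LMX1B+/+, 1.08, 2.09 and 1.17 CPM in LMX1B+/- and 3.06, 2.34 and 2.89 CPM in LMX1B-/-. It was therefore measured in every LMX1B library, also where Dlx1 had 0 to 4 counts, and its whole range was under 3-fold. Six3os1 was at 11.2, 2.08 and 10.4 CPM in LMX1B+/+, 13.6, 6.67 and 0.809 CPM in LMX1B+/- and 2.84, 0.445 and 1.38 CPM in LMX1B-/-. Emx2os was at 3.16, 0.0346 and 2.75 CPM in LMX1B+/+, 0.687, 0.709 and 0.120 CPM in LMX1B+/- and 1.10, 0.712 and 1.83 CPM in LMX1B-/-. Both noncoding RNAs shared the low LMX1B+/+ 2 value of their neighbours. The remaining family members Dlx3 and Dlx4, which act mainly in the placenta, skin and bone, stayed at or under 0.741 CPM in the 9 libraries and had no high value in LMX1B-/- 1 or 3.

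**Figure D4:**
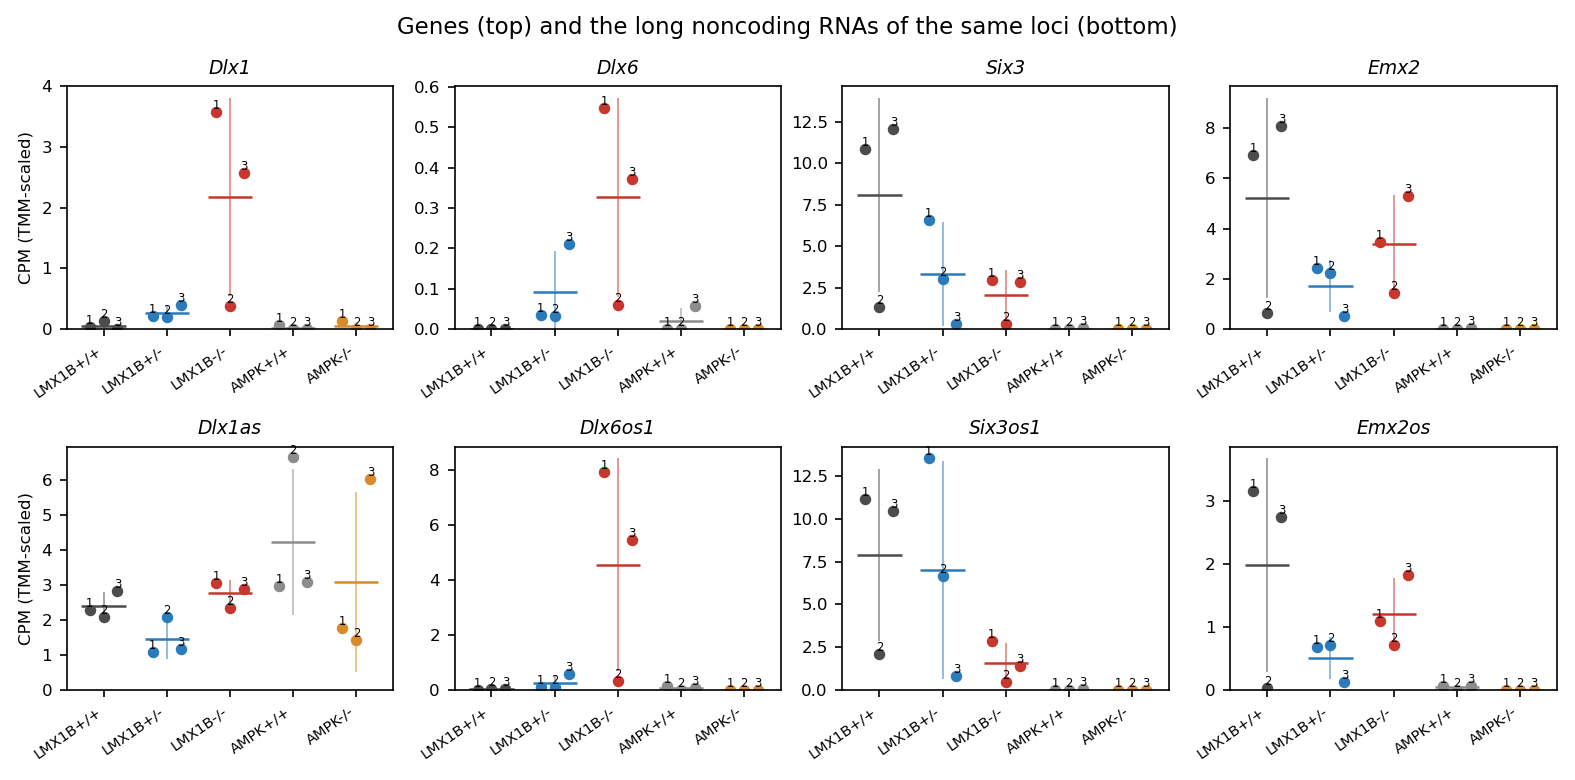
CPM (TMM-scaled, linear axes that differ between panels) of Dlx1, Dlx6, Six3 and Emx2 in the upper row and of Dlx1as, Dlx6os1, Six3os1 and Emx2os in the lower row, 1 point per library with its replicate number; lines give mean and SD (n = 3, drawn no lower than 0). Dlx6os1 repeats the high LMX1B-/- points 1 and 3, while Dlx1as is between 1.08 and 3.06 CPM in all 9 LMX1B libraries; the AMPK points 2 of AMPK+/+ and 3 of AMPK-/- come from the shallow libraries.

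In the fit across all 21729 tested genes (edgeR quasi-likelihood), 6 of the 9 genes passed the filter on low counts, namely Dlx1, Dlx2, Six3, Emx2, Lhx6 and Tbr1. Since the genes were picked from the same libraries, only their fitted log2 differences are given, as a description and without calls. For 4 of the 6, Dlx1, Dlx2, Lhx6 and Tbr1, all LMX1B-/- values exceeded all LMX1B+/+ values, which held for 11.9% of all tested genes. Since the choice rested on these libraries, setting the 4 beside that share is no test of them. Dlx1 and Dlx2 held 5 and 6 counts over LMX1B+/+ and passed the filter through mutant libraries. The fitted log2 difference of LMX1B-/- from LMX1B+/+ was 2.58 (SE 0.52) for Lhx6 and 1.94 (SE 0.47) for Tbr1, against -1.99 (SE 0.87) for Six3 and -0.63 (SE 0.66) for Emx2.

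From LMX1B+/- to LMX1B-/- the log2 differences were 2.99 (SE 0.70) for Dlx1, 2.26 (SE 0.75) for Dlx2, 2.40 (SE 0.52) for Lhx6 and 2.85 (SE 0.51) for Tbr1, with -0.67 (SE 0.89) for Six3 and 0.99 (SE 0.71) for Emx2. With both LMX1B-/- 1 and 3 left out they became 0.52 for Dlx1, -0.33 for Dlx2, 0.46 for Lhx6 and 1.16 for Tbr1. With both LMX1B+/+ 1 and 3 left out, the log2 difference of LMX1B-/- from LMX1B+/+ went from -1.99 to 0.59 for Six3 and from -0.63 to 2.36 for Emx2. In LMX1B+/- against LMX1B+/+ it went from -1.32 to 1.31 for Six3 and from -1.62 to 1.41 for Emx2. All 3 comparisons share libraries.

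Whether other regional genes moved with the 9 was described with lists of 12 genes of the pallium, 12 of the subpallium and 15 of the diencephalon and eye, 39 in all. LMX1B-/- 1 and 3 were the highest pair of libraries for 4 of the 6 tested members and for Dlx6os1 and Dlx1as. The pair was picked because members were highest there, and both noncoding RNAs overlap members, so these counts are no test. The same pair was the highest for 2 of 10 tested pallial genes and 2 of 9 tested subpallial genes (Sp9 among them), against 1.07% of all tested genes. The pair was the highest for 0 of 8 tested diencephalic and eye genes, 0 of 8 midbrain, 0 of 9 cerebellar and 0 of 14 hindbrain genes. Nkx2-1, which defines the medial ganglionic eminence and parts of the hypothalamus, had 0 counts in all 6 LMX1B+/+ and LMX1B+/- libraries and was at 2.90, 0.148 and 0.0530 CPM in LMX1B-/-, so that it followed Lhx8 and not the Dlx genes. LMX1B-/- 1 was the single highest library for 2 of the 8 tested diencephalic and eye genes, Sim1 at 2.19 CPM and Pomc at 1.87 CPM, against 5.32% of all tested genes. Fezf1 at 0.645 CPM and Nkx2-4 at 0.323 CPM, which did not pass the filter on low counts, were also highest there. Of the same 8 tested genes, LMX1B+/- 1 was the highest library for 3 and LMX1B+/+ 1 for 2. Over all 15 genes of the list, LMX1B-/- 1 was the highest for 7, LMX1B+/- 1 for 4 and LMX1B+/+ 1 for 2. The genes that did not pass the filter had few counts, and no share over all genes is given for them.

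Many listed genes are active in the brain stem too, and the summed lists moved less than the 9 genes. The pallial list summed to 161 to 207 CPM in LMX1B+/+, 135 to 154 CPM in LMX1B+/- and 184, 150 and 224 CPM in LMX1B-/- 1, 2 and 3, most of it from Cux2, Neurod2, Neurod6 and Bhlhe22. The subpallial list summed to 28.9 to 35.03, 29.1 to 35.1 and 50.3, 36.4 and 42.2 CPM in the same order. The diencephalic and eye list summed to 126, 59.4 and 130 CPM in LMX1B+/+ and 132, 79.5 and 51.5 CPM in LMX1B+/-. In LMX1B-/- 1, 2 and 3 it was at 71.8, 57.9 and 80.6 CPM, all below LMX1B+/+ 1 and 3. Within LMX1B-/- each of these lists was lowest in library 2. Nkx2-1, a defining gene of the subpallial list, and the diencephalic Nkx2-4 were at 0 in every LMX1B+/+ and LMX1B+/- library. The part of other forebrain tissue in the levels of the Dlx genes, Lhx6 and Tbr1 was not tested.

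**Figure D5:**
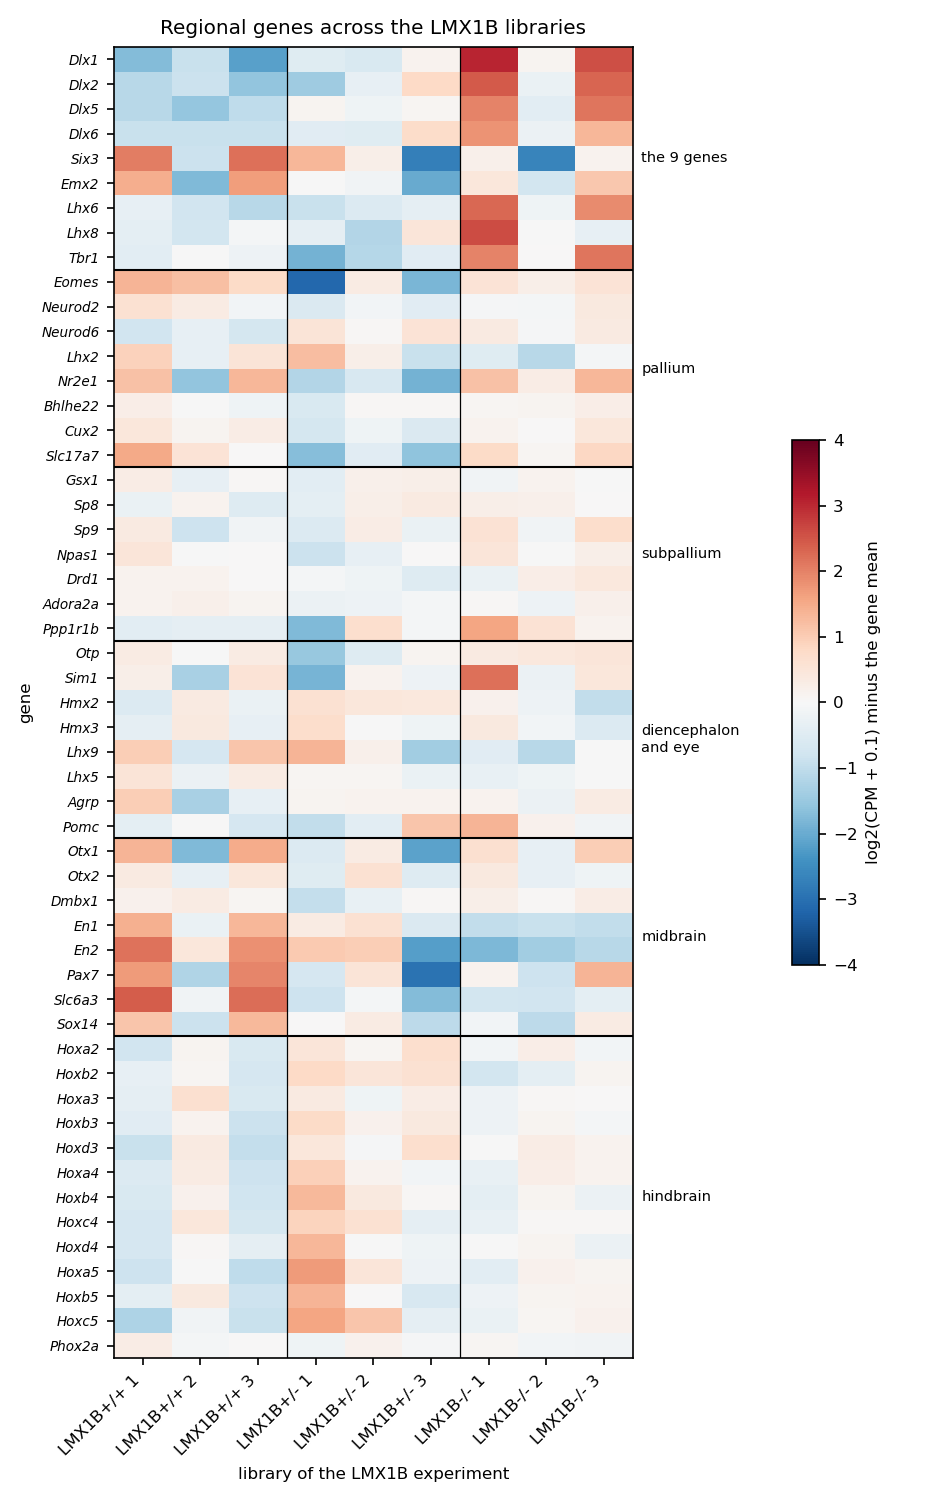
Heat map of log2(CPM + 0.1) minus each gene's mean over the 9 LMX1B libraries (columns, by genotype) for the 9 genes and for tested genes of 5 regional lists (rows); red is above and blue below the gene's mean. The columns LMX1B-/- 1 and 3 are red for Dlx1, Dlx2, Dlx5, Dlx6, Lhx6 and Tbr1, and the columns LMX1B+/+ 1 and 3 are red for Six3, Emx2 and most midbrain genes.

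Midbrain genes moved with Six3 and Emx2. LMX1B+/+ 1 and 3 were the highest pair of libraries for 6 of 8 tested midbrain genes (Otx1, En1, En2, Pax7, Slc6a3 and Sox14) against 5.13% of all tested genes, and for 0 of 14 hindbrain genes. Otx1, a homeobox gene of forebrain and midbrain, was at 4.43, 0.415 and 4.82 CPM in LMX1B+/+, and Slc6a3, the dopamine transporter, at 6.04, 0.934 and 5.29 CPM. The 9 midbrain genes summed to 140, 55.8 and 135 CPM in LMX1B+/+, 60.0, 88.1 and 37.4 CPM in LMX1B+/- and 61.2, 43.2 and 63.6 CPM in LMX1B-/-. LMX1B+/+ 2 and LMX1B+/- 3, the lowest libraries of their genotypes for Six3 and Emx2, were also the lowest of their genotypes for this sum. The 14 hindbrain genes ran the other way in LMX1B+/+, at 197, 356 and 170 CPM, and were at 729, 377 and 289 CPM in LMX1B+/- and 254, 335 and 316 CPM in LMX1B-/-. Whether the share of midbrain in each library had a part in the levels of Six3 and Emx2 was not tested.

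A list of 14 craniofacial genes was included because Dlx5 and Dlx6 also act in the facial skeleton. It summed to 23.0 to 27.5 CPM in LMX1B+/+, 18.3 to 39.9 CPM in LMX1B+/- and 32.0, 21.7 and 18.1 CPM in LMX1B-/- 1, 2 and 3. LMX1B-/- 3, with the highest Dlx5 at 1.19 CPM, had the lowest sum of the 9 libraries. Twist2 was the 1 of 8 tested genes of this list for which LMX1B-/- 1 and 3 were the highest pair.

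By the fit over all genes, 27 of the 39 listed forebrain genes were tested (edgeR quasi-likelihood test, called at a Benjamini-Hochberg adjusted p under 0.05). Between LMX1B-/- and LMX1B+/+ 0 were called, where 0.0184% of all genes were, and their median log2 difference was 0.08 beside 0.01 over all genes. DESeq2 called 3 of the listed genes and 35 of all genes. At an unadjusted edgeR p under 0.05 there were 8 listed genes, not all in 1 direction. The share of all genes at that limit is not given here. In LMX1B+/- against LMX1B+/+ 7 were called, of which 2 rose and 5 fell, where 36.7% of all genes were called. Neurod6 (log2 difference 0.98, SE 0.16) rose, whereas Cux2 (-0.76, SE 0.15), Slc17a7 (-2.08, SE 0.44), Eomes (-2.01, SE 0.55), Neurod2 (-0.67, SE 0.19) and Nr2e1 (-2.36, SE 0.71) fell. From LMX1B+/- to LMX1B-/- 6 rose and 0 fell, where 25.5% of all genes were called and 11.5% were called higher. Among the 6 were Cux2 (0.69, SE 0.15), Slc17a7 (1.85, SE 0.45), Nr2e1 (2.58, SE 0.70) and Otp (0.92, SE 0.28). Cux2, Slc17a7 and Nr2e1, genes of upper-layer neurons, excitatory terminals and neural stem cells, were called in both comparisons, which share the LMX1B+/- libraries. With both LMX1B-/- 1 and 3 left out, 0 of the listed genes were called in LMX1B-/- against LMX1B+/-. Among the noncoding partners, Dlx6os1 (4.07, SE 0.88) and Dlx1as (0.93, SE 0.26) rose in that comparison, and Dlx1as fell in LMX1B+/- against LMX1B+/+ by 0.73 (SE 0.27) on the log2 scale.

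Of 13 alternatives for LMX1B+/- against LMX1B+/+, Neurod6 and Slc17a7 were called in 13, Cux2 in 12, Eomes in 11, Neurod2 in 10, Nr2e1 in 9 and Dlx1as in 6. The calls of Eomes, Neurod2, Nr2e1 and Dlx1as ended without LMX1B+/- 3, those of Neurod2, Nr2e1 and Dlx1as without LMX1B+/+ 1, those of Nr2e1 and Dlx1as without LMX1B+/+ 3, and that of Dlx1as without LMX1B+/- 1. Without both LMX1B+/+ 1 and 3 the log2 difference of Nr2e1 turned to 0.68. Of 13 alternatives for LMX1B-/- against LMX1B+/-, Cux2 was called in 12, Slc17a7 in 11, Nr2e1 in 10, Dlx1as in 8 and Otp in 7. Here the calls of Nr2e1, Otp and Dlx1as ended without LMX1B-/- 3, those of Otp and Dlx1as without LMX1B-/- 1, and that of Otp without LMX1B-/- 2 or LMX1B+/- 2. The calls of Slc17a7, Nr2e1 and Dlx1as ended without LMX1B+/- 3, and that of Dlx1as without LMX1B+/- 1. Of the 461 Dlx6os1 counts in LMX1B-/-, 245 were in library 1 and 205 in library 3. Each alternative with 1 library left out kept at least 1 of these libraries.

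In the AMPK experiment the 9 genes were at or near the floor. Over the 6 libraries and 9 genes together, 27 counts were recorded, and 2 of 54 values exceeded 3 counts. These were Lhx6 with 5 counts (0.291 CPM) and Tbr1 with 7 counts (0.407 CPM), both in AMPK+/+ 3. Dlx2 and Lhx8 had 0 counts in all 6 libraries, which in the 4 deep libraries allows up to 0.175 to 0.198 CPM each. Dlx1 had 1 count in AMPK+/+ 1 and 2 counts in AMPK-/- 1, Dlx5 2 counts in AMPK+/+ 3, and Dlx6, Six3 and Emx2 1 count each in AMPK+/+ 3. In the 2 shallow libraries all 9 genes were at 0, where a level such as that of Dlx1 in LMX1B-/- 1 was not detectable at this depth. None of the 9 passed the filter on low counts, so no difference between AMPK-/- and AMPK+/+ could be fitted, where 8.94% of the 17397 tested genes were called.

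Set side by side, Six3 was at 1.35 to 12.04 CPM in LMX1B+/+ and at 0 to 0.0582 CPM in AMPK+/+, Emx2 at 0.657 to 8.08 CPM and 0 to 0.0582 CPM, and Tbr1 at 0.984 to 1.31 CPM and 0 to 0.407 CPM. Age, mutant line and experiment differed together between these wild types and cannot be told apart. Dlx1as was at 2.95, 6.64 and 3.09 CPM in AMPK+/+ and at 1.78, 1.42 and 6.03 CPM in AMPK-/-, with 2 reads behind the value of each shallow library, and its log2 difference of -0.86 (SE 0.50) was not called. Of the 39 listed forebrain genes 14 were tested, of which 1 rose and 2 fell. Slc17a7 (log2 difference -3.15, SE 0.25) and Neurod2 (-1.65, SE 0.42) fell in AMPK-/-. Slc17a7 was called in all 12 alternatives, with an edgeR adjusted p of 0.0271 without the 2 shallow libraries. Neurod2 was called in 7 of the 12. Its call ended without both shallow libraries (edgeR adjusted p = 0.154), without AMPK+/+ 3 (0.161), without AMPK-/- 1 (0.156) and without AMPK-/- 3 (0.0538), while DESeq2 gave it no adjusted p. The pallial list summed to 115 to 159 CPM in AMPK+/+ and 36.6 to 57.3 CPM in AMPK-/-. Slc17a7 alone had a mean of 84.4 CPM in AMPK+/+ and 9.82 CPM in AMPK-/-, and made up most of the difference between these sums. The highest sum of each genotype came from its shallow library.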

How the data were processed

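Brainstem polyA RNA was sequenced with a directional kit. The authors deposited per-gene counts and RPKM values for each experiment, and the processing notes of the submitters name HISAT2 and GRCm39. The counting tool, annotation and strand setting are not given in the sources used here. The RPKM values deposited by the authors were used only to compare levels between genes, and all other values are CPM computed from the deposited counts with TMM scaling. Symbols were matched to 51884 of 57180 gene IDs, and 0 sample columns were left unmapped. Genes were filtered with filterByExpr and tested with edgeR 4.0.16 (quasi-likelihood, Benjamini-Hochberg, R 4.3.3), 9 libraries in 1 fit for LMX1B and 6 for AMPK, after a check on simulated data. DESeq2 1.42.0, other scalings, no filter, a replicate block and left-out libraries were alternatives. Ratios of pooled counts carry exact binomial 95% intervals (scipy 1.17.1). The 9 genes, the lists and the tests were chosen with earlier results of these data known. Genes named outside the 9 were those called in each list by smallest p, at most 4 per list and direction (Nr2e1, Nkx2-1, Nkx2-4, Sim1, Pomc, Fezf1 and Twist2 were added after their values were seen), the 10 nearest in profile, and the targeted genes, and some of these are not reported here. Ratios between single libraries and the highest pair of libraries were also looked at after the values were seen.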

Additional observations from a re-analysis of the deposited data

How the results depend on the processing

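The limits lie in a few counts per library, 3 libraries per genotype and 2 shallow AMPK libraries. In LMX1B-/- against LMX1B+/+, 4 genes were called as reported, 19 by library size only, 329 without the filter, 35 by DESeq2, 13 from only the 6 libraries compared, and 3 to 11 with 1 library left out (11 without LMX1B-/- 2, 10 without LMX1B+/+ 2). Of the forebrain list, 0 were called as reported, 2 by library size only, 12 without the filter, 3 by DESeq2 and 0 to 2 with 1 library left out (2 without LMX1B-/- 2). In LMX1B+/- against LMX1B+/+, 7977 genes became 4557 without both LMX1B+/+ 1 and 3 (chosen after seeing the data) and 5911 to 8405 with 1 library left out. The forebrain list went from 7 to 11 by library size only, 2 without both LMX1B+/+ 1 and 3, and 4 to 9 with 1 library left out (4 without LMX1B+/+ 1). In LMX1B-/- against LMX1B+/-, 5544 genes became 720 without both LMX1B-/- 1 and 3 (also chosen after seeing the data) and 3500 to 6055 with 1 library left out (3602 without LMX1B-/- 1, 3500 without LMX1B-/- 3). The forebrain list went from 6 to 11 by library size only, 18 without the filter, 0 without both LMX1B-/- 1 and 3, and 3 to 8 with 1 library left out (3 without LMX1B-/- 3), and Dlx2 turned from a log2 difference of 2.26 to -0.33 without both LMX1B-/- 1 and 3. In each case where both libraries were left out, the genotype was left with 1 library, whose spread was taken to be that of the other genotypes. In the AMPK experiment 1555 genes became 667 by DESeq2, 6 without the 2 libraries of low depth and 541 to 2959 with 1 library left out (2959 without AMPK+/+ 1, 541 without AMPK+/+ 3, 923 without AMPK-/- 1, 605 without AMPK-/- 3). The forebrain list there went from 3 to 5 without the filter, 1 by DESeq2, 1 without the 2 libraries of low depth and 1 to 6 with 1 library left out (1 without AMPK-/- 1, 6 without AMPK-/- 2). The cause of these changes was not tested.

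Replicate numbers are shared between genotypes, but samples share only a number. Deviations of LMX1B-/- and LMX1B+/+ libraries of 1 number correlated at 0.076, 0.15 and 0.097, each highest with its own number as a hint from the data, while in the other comparisons the same-number correlations ran from -0.18 to 0.048. With a replicate block, 5 genes and 1 of the forebrain list were called in LMX1B-/- against LMX1B+/+, and the forebrain count in the AMPK experiment was 5.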

Other observations

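Genes of regions other than the forebrain were called in some comparisons of the LMX1B experiment. Of all tested genes, 36.7% were called in LMX1B+/- against LMX1B+/+. The share was 25.5% in LMX1B-/- against LMX1B+/- and 0.0184% in LMX1B-/- against LMX1B+/+. In LMX1B+/- against LMX1B+/+, 6 of 14 hindbrain genes rose and 0 fell, with Hoxc5 (log2 difference 1.68, SE 0.39), Hoxb3 (0.81, SE 0.22), Hoxa5 (1.43, SE 0.39) and Hoxa2 (0.81, SE 0.22) first, and LMX1B+/- 1 was the highest library for 9 of the 14, against 11.7% of all tested genes. In the same comparison 4 of 9 tested cerebellar genes fell, which were Calb1 (-0.65, SE 0.12), Neurod1 (-0.96, SE 0.19), Zic2 (-0.89, SE 0.23) and Pcp2 (-2.08, SE 0.53), as did Slc6a3 of the midbrain list (-2.82, SE 0.58). Of the craniofacial list Sp7 rose (1.43, SE 0.51) and Alx4 fell (-1.01, SE 0.32). Calb1 also fell in LMX1B-/- against LMX1B+/+ by 0.85 (SE 0.12) on the log2 scale. In LMX1B-/- against LMX1B+/-, En1 (-1.17, SE 0.37), En2 (-1.93, SE 0.62) and Hoxb2 (-0.97, SE 0.27) fell. Of the 13 alternatives for LMX1B+/- against LMX1B+/+, Calb1, Neurod1 and Pcp2 were called in 13, Hoxc5, Hoxb3, Zic2 and Slc6a3 in 12, Hoxa5 in 11, Hoxa2 in 9, Alx4 in 8 and Sp7 in 6. In LMX1B-/- against LMX1B+/+ Calb1 was called in 6 of 14, and in LMX1B-/- against LMX1B+/- Hoxb2 in 10 of 13 and En1 and En2 in 5 of 13 each.

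In AMPK-/- against AMPK+/+, Calb1 (1.23, SE 0.32) rose and Barhl1 (-3.06, SE 0.64) fell among 7 tested cerebellar genes, where 8.94% of all tested genes were called. Without the 2 shallow libraries both calls ended (edgeR adjusted p = 0.219 for Calb1 and 0.129 for Barhl1), and over the 12 alternatives Calb1 was called in 6 and Barhl1 in 9.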
